A study of Homo sapiens with 14 samples.

Results

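The comparison described here is that of ICM-treated with untreated IMR90 cells, the first pair of ICM libraries (ICM 1 and ICM 2) against the untreated pair (WT 1 and WT 2), which together are 4 of the 14 libraries of the series. The libraries were chosen by their titles. Of 19513 protein-coding symbols in the count files, 11584 averaged 1 CPM or more across the 4 libraries and were tested. CPM is the count of a gene per 1000000 protein-coding counts of its library, scaled by TMM, and every level below is on that scale. A gene is reported as higher or lower only where both ICM libraries lay on the same side of both WT libraries. IMR90 are primary human lung fibroblasts with a finite lifespan. The labels name 2 isolates (I79 and I83, passage 5) without saying which library came from which. All 4 libraries have the genotype WT. The WT cells received no treatment, and the ICM cells received 10 µM inflachromene (ICM) for up to 6 days, which the labels describe as senescence-inducing. No vehicle-treated group is named, and the day of harvest is not given for a library. The labels do not say that replicates came from separate cultures, so p-values measure only the spread between these samples, which may be technical.

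Senescent cells leave the division cycle for good while staying metabolically active. The arrest is held by the p53 and RB pathways, whose CDK inhibitors keep RB-family proteins bound to E2F factors and shut off genes of S phase and mitosis. Fibroblasts entering senescence typically lose lamin B1 and nuclear HMGB proteins, and often secrete a mixture of cytokines, proteases and growth factors. Inflachromene binds HMGB1 and HMGB2, DNA-bending chromatin proteins, and HMGB1 can also leave the cell and act as an alarm signal.

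The libraries differed in make-up as well as in treatment. Gene counts were 33561766 and 36450212 in WT and 48804435 and 54277501 in ICM. Small RNA genes took 6.06% and 3.19% of the gene counts of ICM 1 and ICM 2 and under 0.01% in each WT library, which is why only protein-coding symbols were scaled. Reads ambiguous between genes made up 4.43% and 6.73% in ICM against 1.72% and 1.62% in WT. The libraries labelled siSRRM2 and siBANF1, which are also ICM-treated, held 3.94% to 5.76% small RNA, while the separate ICM pair, ICM 3 and ICM 4, held as little as WT. BANF1 was not lower in the libraries labelled siBANF1 (19.7 and 36 CPM) than in ICM 1 and ICM 2 (15.2 and 31.2), which goes against that label, while SRRM2 was low in them (68.4 and 16.7 CPM) as in the siSRRM2 libraries (77.5 and 78.6). The 2 ICM libraries also differed from each other far more than the WT pair did. The median fold difference between the replicates was 1.64 in ICM and 1.10 in WT, and 64.4% of genes lay within 2-fold between ICM 1 and ICM 2 against 98.8% between the WT libraries. These differences in library make-up and the treatment cannot be told apart in this comparison.

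Of the 11584 genes, 982 (8.48%) were called with edgeR's quasi-likelihood test at a Benjamini-Hochberg adjusted p under 0.05, and in all 982 the groups did not overlap. In ICM, 446 genes (3.85%) were higher and 536 (4.63%) lower. Irrespective of the test, 2992 genes (25.8%) were higher in both ICM libraries than in both WT libraries and 3451 (29.8%) were lower. A further 3554 genes (30.7%) had ICM 1 and ICM 2 on opposite sides of WT. The 2 nearest libraries of opposite groups were at least 4-fold apart for 80 genes that were higher in ICM and for 260 that were lower. Scaling by total protein-coding counts shifted the median difference of all genes from 0.04 to 0.18 (log2) and turned the split to 564 higher and 446 lower.

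**Figure D1:**
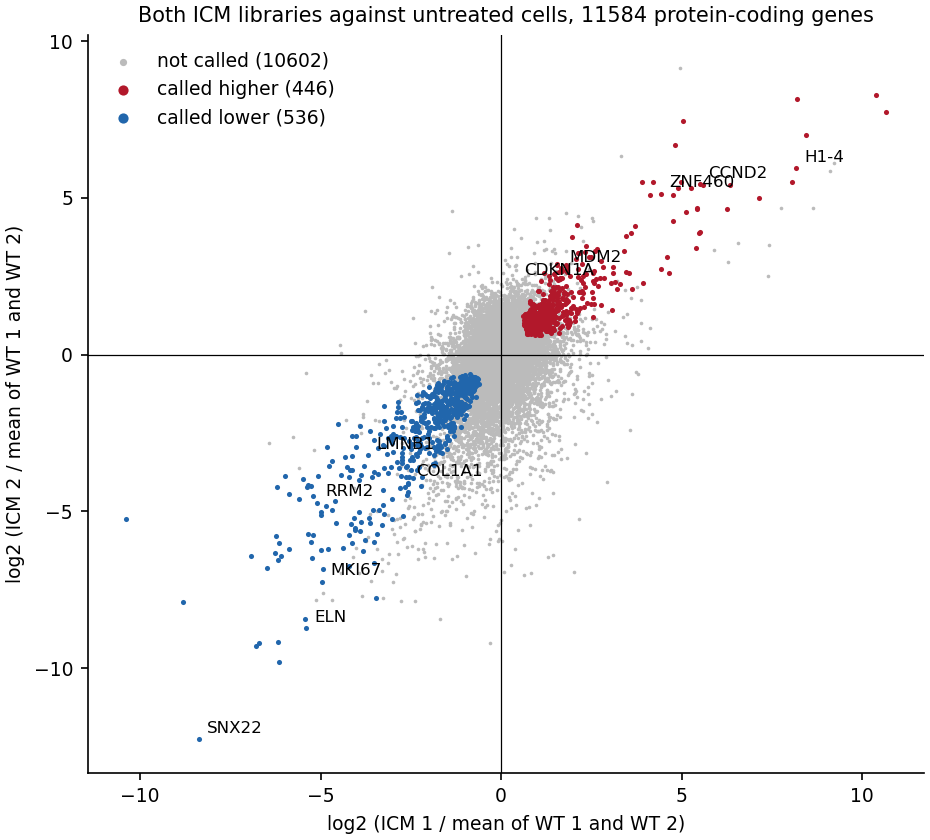
Each point is 1 of the 11584 tested genes, placed by its log2 ratio to the mean of the 2 WT libraries in ICM 1 (x axis) and in ICM 2 (y axis), with the 446 genes called higher in red and the 536 called lower in blue. The called genes lie mostly near the diagonal, and 84.6% of them were within 2-fold between ICM 1 and ICM 2. The call itself favours genes in which the 2 ICM libraries are alike. The grey cloud is wide because ICM 1 and ICM 2 differed by a median of 1.64-fold over all tested genes.

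The spread behind these calls was estimated over the 10 libraries of the first set, since 2 against 2 leaves little to estimate it from: with the 4 compared libraries alone 0 genes were called (2108 at an unadjusted p under 0.05), and without WT 1 or WT 2 the count was 37 or 41, against 1669 without ICM 1. A fit that gives each group its own weight (limma voom) called 221 genes (1.91%), of which 189 were among the 982, with 113 higher and 76 lower in ICM, and these are named below as called by both tests. The shared spread is too small for this comparison: by those weights the variance of the WT and ICM groups was 1.22 times the mean over the 5 groups fitted, so the standard errors and adjusted p-values given here understate the error. The 5 residual degrees of freedom are also not all independent, since ICM 1 differed from ICM 2 much as the first library labelled siBANF1 differed from the second (r = 0.853 across genes, which are not replicates).

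CCND2, which encodes the G1 cyclin D2, stood farthest above WT. Its level was 3.31 and 2.82 CPM in WT 1 and WT 2 and 139 and 132 CPM in ICM 1 and ICM 2. The ICM libraries were close to each other and both some 40-fold above the nearer WT library (log2 fold change 5.47 ± 0.26, SE; adjusted p 0.000516). ICM 3 and ICM 4 had 4.50 and 4.87 CPM, near WT, whereas the siSRRM2 libraries had 53.7 and 56.1 and the libraries labelled siBANF1 91.1 and 124. The high CCND2 level was therefore seen in all 6 ICM-treated libraries that carry small RNA counts and in neither of the other ICM pair.

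ZNF460, a zinc finger protein, rose from 2.46 and 2.7 CPM in WT to 55.7 and 91.0 in ICM (4.83 ± 0.30; adjusted p 0.000705), and ICM 3 and ICM 4 lay between, at 8.74 and 10.2. INMT, an indolethylamine methyltransferase, rose from 2.20 and 3.76 to 32.6 and 41.4 CPM (3.63 ± 0.32; adjusted p 0.00331). Its level in ICM 3 and ICM 4 was 0.679 and 0.0755 CPM, below both WT libraries. ANKRD36C had 1.78 and 2.53 CPM in WT, 25.1 and 13.2 in ICM 1 and ICM 2, and 0.594 and 0.755 in ICM 3 and ICM 4. INMT and ANKRD36C thus stood on opposite sides of WT in the 2 ICM pairs.

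Other genes at the top were high in both ICM pairs. PSG4, of the pregnancy-specific glycoprotein family whose near-identical members can share reads, had 14.5 and 16.4 CPM in WT, 97.4 and 159 in ICM 1 and ICM 2, and 103 and 102 in ICM 3 and ICM 4. PTCHD4, a patched-domain protein known as a p53-induced repressor of Hedgehog signalling, had 4.02 and 6.08 CPM in WT and 35.6 and 35.2 in ICM, with 22.6 and 25.8 in ICM 3 and ICM 4. ACER2, a Golgi ceramidase that p53 can induce, had 3.76 and 4.32 CPM in WT and 24.5 and 40.0 in ICM, with 25.3 and 45.8 in the other pair. SGMS2, a sphingomyelin synthase at the plasma membrane, went from 3.99 and 4.32 to 18.6 and 39.3 CPM. For each of these 4 genes no ICM library of either pair reached down to WT.

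The remaining genes among the 12 most separated ones were ZBTB20, USP53, NAALADL2 and SLC9A7. ZBTB20, a BTB-domain transcriptional repressor, rose from 21.6 and 25.3 to 168 and 129 CPM. USP53, a member of the ubiquitin-specific peptidase family, had 37.3 and 36.2 CPM in WT and 176 and 181 in ICM. NAALADL2 had 6.26 and 9.61 CPM in WT and 53.5 and 43.0 in ICM, and SLC9A7, an endosomal sodium-proton exchanger, 17.5 and 20.5 against 87.3 and 98.7. All 12 genes were called by both tests.

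**Figure D2:**
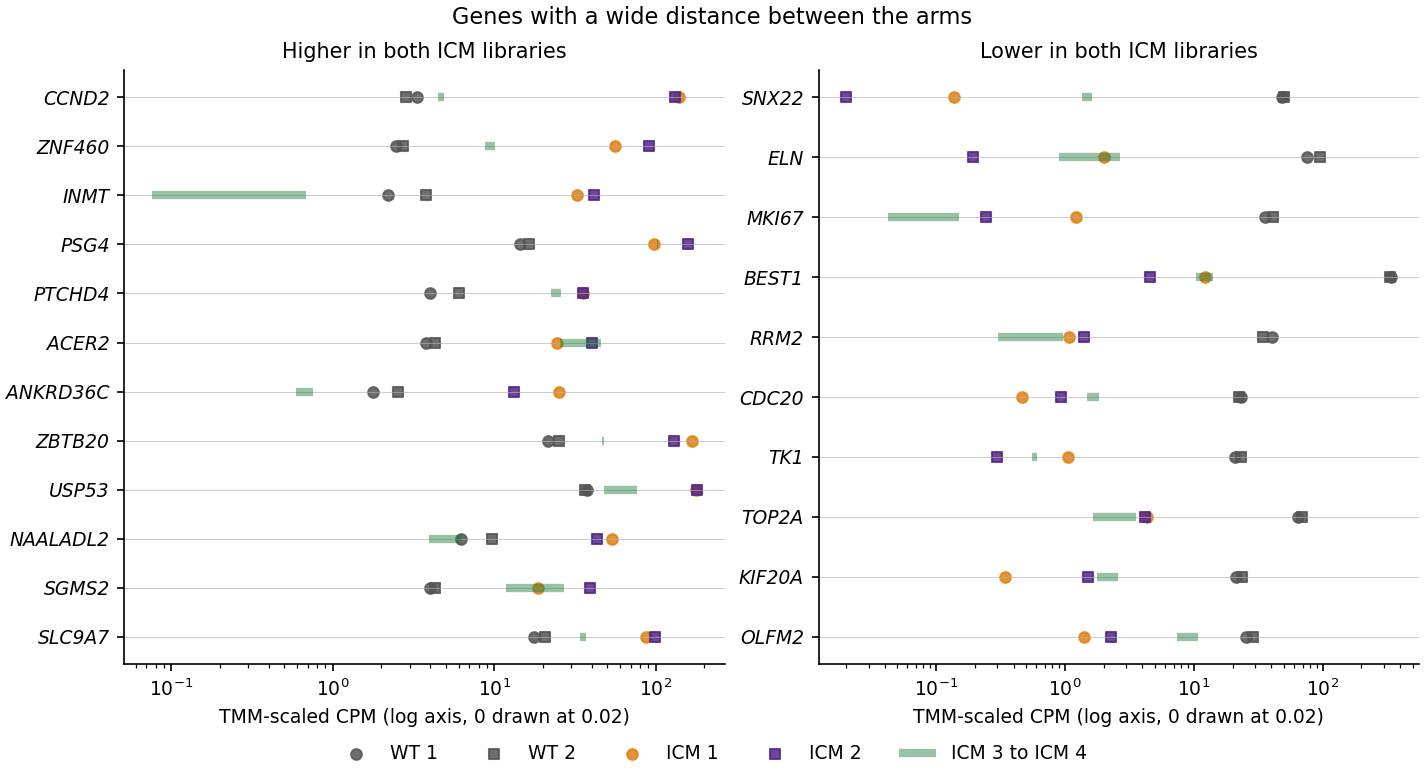
Levels in TMM-scaled CPM (log axis) of the 12 called genes with the widest distance above WT (left) and of 10 of the 12 with the widest distance below it (right), with WT in grey, ICM 1 in orange, ICM 2 in purple and a green bar from ICM 3 to ICM 4. CCND2 sits near 3 CPM in WT and above 130 in ICM 1 and ICM 2 with the green bar beside WT, while MKI67 is below 2 CPM in all 4 ICM libraries.

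Of the 29 gene lists examined, that of mitosis genes had the largest share of members called lower. MKI67, whose product Ki-67 coats mitotic chromosomes and marks cycling cells, had 35.6 and 41.5 CPM in WT and 1.22 and 0.246 in ICM (log2 fold change -5.73 ± 0.91; adjusted p 0.0152). CDK1, the kinase that drives entry into mitosis, fell from 19.7 and 18.7 to 0.254 and 0.193 CPM (-6.41 ± 0.31; adjusted p 0.000516). BIRC5, which encodes survivin of the chromosomal passenger complex, fell from 18.4 and 19.7 to 0.462 and 0.351 CPM, and DLGAP5, a spindle microtubule protein, from 14.1 and 15.7 to 0.393 and 0.263. The ICM libraries were low for each of these genes and the nearest WT library was at least 29.1-fold above. ICM 3 and ICM 4 had 0.0424 and 0.151 CPM of MKI67 and 0.0424 and 0.189 of CDK1.

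Of 46 mitosis genes tested, 27 fell and 0 rose (58.7% against 4.63% of all genes lower). In 43 of them (93.5% against 29.8% of all genes) both ICM libraries were below both WT libraries. Of these 46, 24 passed the minimum level through WT alone, but the list was tested almost whole: over all 47 members in the files 44 were lower in both ICM libraries. The median log2 fold change was -3.53 over the list and 0.04 over all genes, with medians of -3.88 in ICM 1 and -3.01 in ICM 2. Named members that fell were the anaphase activator CDC20 (23.4 and 22.6 CPM in WT, 0.462 and 0.930 in ICM), the DNA untangling enzyme TOP2A (64.1 and 68.8 against 4.37 and 4.18) and the kinesin KIF20A (21.5 and 23.7 against 0.346 and 1.53), whose exons overlap those of BRD8 on the other strand, so that its reads are uncertain. Without WT 1 or WT 2 the count of called mitosis genes was 6, and the test with group weights called 5. In bulk RNA, fewer cycling cells and less of these RNAs per cell cannot be told apart.

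Promoters of the mitosis genes were examined because most such genes are repressed in resting cells through a shared promoter element, the cell cycle homology region (CHR), which DREAM and MuvB complexes bind, often next to CCAAT boxes bound by NF-Y. The windows are those of RefSeq on GRCh38.p14, 250 bases before to 50 bases after the gene's start, and 9464 of the 11584 tested genes matched one by symbol. The 3 promoters below belong to the called mitosis genes that held both motifs and lay farthest below WT, with a chromosome left out of the choice. RRM2, the called DNA replication gene farthest below WT, follows for contrast. Capitals mark matches, on either strand, to the CHR letters TTTGAA, to CCAAT, and to the E2F cores TTGGCGC and TTCCCGC; neighbouring matches can overlap or abut.
CDK1 (chr10:60778081-60778380, + strand): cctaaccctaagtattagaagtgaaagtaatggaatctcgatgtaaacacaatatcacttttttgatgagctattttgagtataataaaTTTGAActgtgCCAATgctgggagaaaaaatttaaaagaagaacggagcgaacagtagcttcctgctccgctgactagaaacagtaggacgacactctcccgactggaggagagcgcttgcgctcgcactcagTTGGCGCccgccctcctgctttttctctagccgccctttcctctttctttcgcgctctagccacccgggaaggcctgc
DLGAP5 (chr14:55191536-55191835, - strand): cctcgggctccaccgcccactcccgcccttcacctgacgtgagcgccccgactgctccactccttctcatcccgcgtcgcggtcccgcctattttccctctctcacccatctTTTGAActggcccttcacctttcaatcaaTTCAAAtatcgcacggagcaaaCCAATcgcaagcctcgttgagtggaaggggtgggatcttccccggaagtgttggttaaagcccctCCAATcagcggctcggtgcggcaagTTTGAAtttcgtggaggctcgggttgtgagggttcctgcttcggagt
MKI67 (chr10:128126374-128126673, - strand): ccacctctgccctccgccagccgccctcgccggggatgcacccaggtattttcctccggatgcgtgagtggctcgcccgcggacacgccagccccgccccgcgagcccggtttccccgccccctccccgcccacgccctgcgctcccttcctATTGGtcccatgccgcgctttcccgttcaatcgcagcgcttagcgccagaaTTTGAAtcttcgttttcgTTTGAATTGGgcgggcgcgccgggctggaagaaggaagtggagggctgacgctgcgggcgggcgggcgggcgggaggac
RRM2 (chr2:10122489-10122788, + strand): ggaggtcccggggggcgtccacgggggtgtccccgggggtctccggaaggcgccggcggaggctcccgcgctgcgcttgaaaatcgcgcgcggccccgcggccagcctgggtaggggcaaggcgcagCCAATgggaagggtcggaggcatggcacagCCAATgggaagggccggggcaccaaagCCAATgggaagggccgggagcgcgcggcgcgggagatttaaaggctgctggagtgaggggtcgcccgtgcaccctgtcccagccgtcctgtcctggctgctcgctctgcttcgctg

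CDK1 held 1 CHR, 1 CCAAT and 1 E2F match. DLGAP5 held 3 CHR and 2 CCAAT matches, MKI67 held 2 of each, and RRM2 held 3 CCAAT matches and 0 CHR matches. Of the 40 tested mitosis genes with a promoter window, called or not, 75% held TTTGAA, 75% CCAAT and 57.5% both, against 9.71%, 36.8% and 4.11% of the windows of all tested genes. The 24 of them that were called lower had shares close to those of their list, at 79.2%, 75% and 58.3%. Of the 39 tested DNA replication genes with a window, 2.56% held TTTGAA, 56.4% CCAAT and 64.1% an E2F core, where 14.8% of all windows held an E2F core. The 13 called ones held TTTGAA in 0, CCAAT in 84.6% and an E2F core in 61.5%. Among genes called lower outside the 2 lists the share with TTTGAA was 15.2%, and among genes called higher 13.3%. A match describes letters in the window, not a bound site.

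Of 45 DNA replication genes, 15 fell and 0 rose (33.3% against 4.63% of all genes lower), with a list median of -1.23. RRM2, the small subunit of ribonucleotide reductase that supplies deoxynucleotides, had 40.5 and 34.7 CPM in WT and 1.09 and 1.42 in ICM (-4.90 ± 0.29; adjusted p 0.000624). TK1, the S-phase thymidine kinase, went from 21.1 and 23.4 to 1.06 and 0.298 CPM. MCM10, which helps activate the replicative helicase, went from 6.29 and 5.70 to 0.0924 and 0.263 CPM. TK1 and MCM10 are among 7 of the 45 that averaged under 1 CPM in ICM and passed the minimum level through WT alone. All 45 members in the files were tested. The helicase subunits MCM5, MCM6 and MCM7 fell less, with log2 fold changes of -1.61, -1.66 and -2.18. The list's summed level was 1004 and 956 CPM in WT and 484 and 626 in ICM. The test with group weights called 2 of these genes, and without either WT library 1 was called.

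The 28 cell cycle regulators were divided, with 5 lower and 2 higher (17.9% and 7.14% against 4.63% and 3.85% of all genes). MYBL2, the B-Myb factor that switches on mitotic genes, had 6.97 and 8.75 CPM in WT and 0.0924 and 0.0877 in ICM. The distance between the nearest libraries was 75.5-fold, with only 4 and 5 counts in ICM 1 and ICM 2. FOXM1, a second activator of mitotic genes, had 12.9 and 13.8 against 0.554 and 0.316 CPM, though its exons overlap ITFG2. MYBL2 and FOXM1 are among 3 of the 28 that averaged under 1 CPM in ICM and passed the minimum level through WT alone. CCNA2, CCNE2 and TFDP1 were the other members that fell, and without either WT library 3 regulators were called. CDK6, a partner of the D cyclins, rose together with CCND2 (log2 fold changes 2.03 and 5.47).

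Of 7 CDK inhibitors, 1 was called, against 8.48% of all genes. CDKN1C, which encodes p57, fell from 4.86 and 3.11 CPM to 0.0462 and 0.0526, at 2 and 3 counts in ICM 1 and ICM 2. It passed the minimum level through WT alone. CDKN1A, the p53 target p21, had 1291 and 1312 CPM in WT, 1724 in ICM 1 and 6641 in ICM 2, so both ICM libraries were above WT but ICM 1 stood closer to WT than to ICM 2, and the gene was not called (1.68 ± 0.78; adjusted p 0.221). CDKN2A, the source of p16, had 25.6 and 24.7 CPM in WT and 20.5 and 18 in ICM (adjusted p 0.431). CDKN2B, p15, had 22.1 and 19.9 against 21.8 and 27.0 CPM, with overlapping groups.

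Of 30 p53 targets, 4 rose and 0 fell (13.3% against 3.85% of all genes higher). In 22 of them (73.3% against 25.8% of all genes) both ICM libraries were above both WT libraries. The list median was 0.93, with 0.42 in ICM 1 and 1.20 in ICM 2. MDM2, the ubiquitin ligase that p53 induces and that degrades it, had 146 and 160 CPM in WT and 485 and 1044 in ICM (2.32 ± 0.43; adjusted p 0.0234). RRM2B, the p53-induced ribonucleotide reductase subunit, had 92.3 and 99.9 against 179 and 277 CPM, opposite in direction to RRM2. TP53INP1, a p53 cofactor and target, rose from 59.1 and 65.3 to 133 and 112 CPM. GDF15, a stress cytokine that p53 also controls, overlapped between the groups at 668 and 401 against 836 and 453 CPM. Of the 4 calls, only that of MDM2 was made by both tests, and 0 remained without either WT library.

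RNA of HMGB1 and LMNB1 was called lower in ICM, and that of HMGB2 was not. HMGB1 had 406 and 392 CPM in WT and 116 and 151 in ICM (-1.58 ± 0.25; adjusted p 0.0152) and was called by both tests. HMGB2 had 30.1 and 30.0 CPM in WT and 9.17 and 9.14 in ICM, a 3.27-fold distance between the nearest libraries. It nevertheless missed the threshold (-1.71 ± 0.43, edgeR adjusted p 0.0524). LMNB1, the lamin B1 of the nuclear lamina, fell from 23.3 and 21.3 to 1.73 and 2.40 CPM (-3.43 ± 0.30; adjusted p 0.00331). ICM 3 and ICM 4 were below WT for each of these genes, with 106 and 93.4 CPM of HMGB1, 7.76 and 11.1 of HMGB2 and 4.24 and 4.00 of LMNB1.

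Of the 27 nuclear envelope and chromatin proteins listed, 6 fell and 0 rose (22.2% against 4.63% of all genes lower), and the list median was -0.44. Without either WT library 1 was called. EZH2, the methyltransferase of Polycomb complex PRC2, went from 20.04 and 20.4 to 4.97 and 6.86 CPM, and the cohesin subunit SMC1A and the heterochromatin protein CBX3 were also called lower. BANF1, which bridges DNA to the lamina, had 85.5 and 67.6 CPM in WT and 15.2 and 31.2 in ICM, but 119 and 87.7 in ICM 3 and ICM 4, both above WT. CTCF, the factor that organises chromatin loops, had 53.5 and 54.3 CPM in WT and 34.5 and 76.1 in ICM, on either side of WT (adjusted p 0.96).

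Of 68 splicing and nuclear speckle factors, 20 fell and 1 rose (29.4% and 1.47% against 4.63% and 3.85% of all genes). Irrespective of the test, 42 (61.8% against 29.8% of all genes) had both ICM libraries below both WT libraries. Another 6 (8.82% against 25.8%) had both above and 20 overlapped, and the list median was -0.62. HNRNPA1, a repressor of exon inclusion, had 1089 and 991 CPM in WT and 114 and 205 in ICM (-2.71 ± 0.39; adjusted p 0.0121). HNRNPA3 went from 324 and 303 to 61.6 and 50.4 CPM. The genes HNRNPD, HNRNPH1, HNRNPH3, HNRNPA2B1 and HNRNPA0 fell as well, as did the SR proteins SRSF2, SRSF5, SRSF6, SRSF10 and SRSF11. MBNL2, a muscleblind splicing regulator, rose (1.37).

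The second ICM pair did not share all of these levels. HNRNPA3 stood at 243 and 286 CPM in ICM 3 and ICM 4 and HNRNPA1 at 196 and 191, while the siSRRM2 libraries had 34.4 and 32.8 CPM of HNRNPA3 and the libraries labelled siBANF1 127 and 53.2. SRRM2, a scaffold of nuclear speckles, had 454 and 510 CPM in WT and 268 and 107 in ICM and was not called (adjusted p 0.232), with 668 and 810 in ICM 3 and ICM 4. The test with group weights called 10 of the splicing genes, all among the 21, and without either WT library 1 was called. The part of the library make-up in these levels was not tested.

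**Figure D3:**
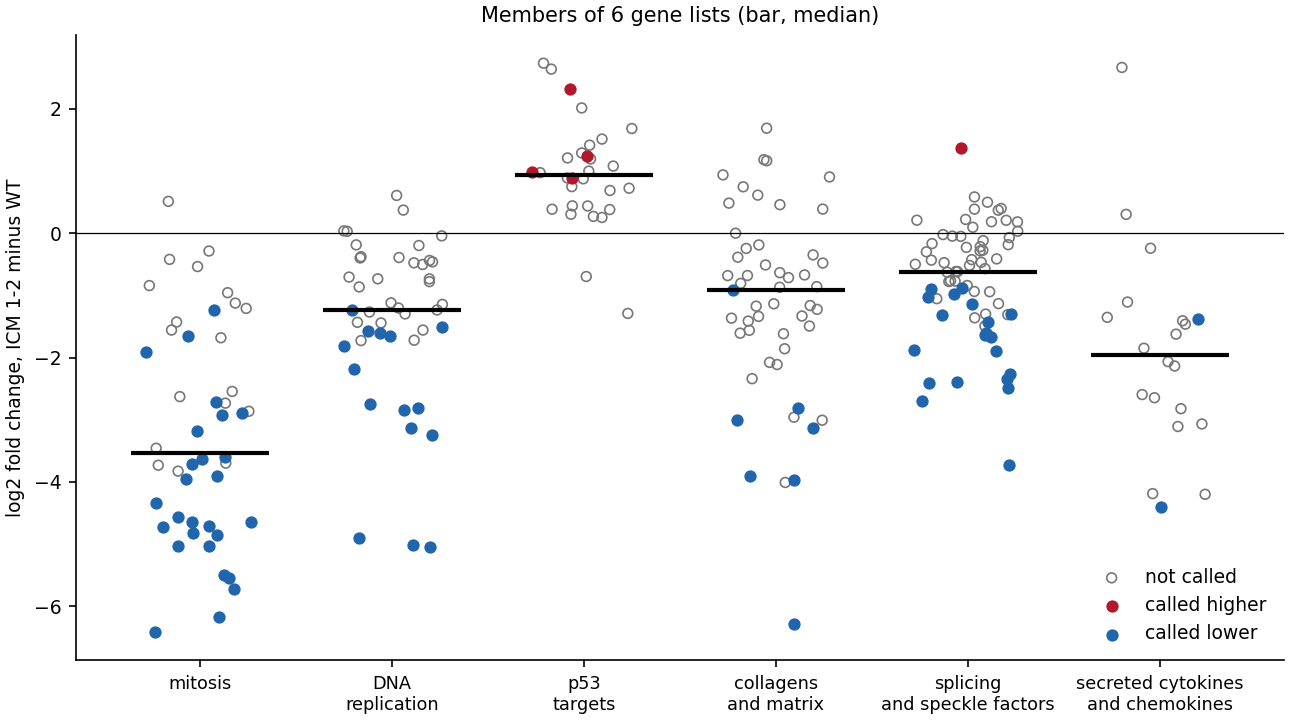
Log2 fold change of ICM over WT for every tested member of 6 gene lists, filled where called and open where not, with a bar at each list's median. Mitosis genes lie almost wholly below 0 with a median of -3.53, p53 targets mostly above 0 with a median of 0.93, and matrix genes spread from -6.29 to 1.69.

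Matrix genes were lower in ICM 2 than in ICM 1. Of 51 collagens and other matrix genes, 7 fell and 0 rose (13.7% against 4.63% of all genes lower), and 31 (60.8% against 29.8%) had both ICM libraries below both WT libraries. The list median was -0.36 in ICM 1 and -2.96 in ICM 2. Their summed level was 59494 and 71106 CPM in WT, 66243 in ICM 1 and 12369 in ICM 2, so that the sum was below both WT libraries in ICM 2 and between them in ICM 1. ELN, elastin, had 75.6 and 94.7 CPM in WT and 2.01 and 0.193 in ICM (-6.29 ± 1.03; adjusted p 0.0162). COL1A1, the main fibrillar collagen chain, had 5542 and 8689.8 CPM in WT and 1194 and 421 in ICM (-3.14 ± 0.67; adjusted p 0.0339), POSTN, periostin, 75.3 and 89.4 against 7.85 and 2.63, and COL5A3, a minor fibrillar chain, 19.4 and 19.3 against 2.03 and 0.561. COL1A2, the partner chain of COL1A1, had 6949 and 9026 CPM in WT but 5116 and 1228 in ICM and was not called (adjusted p 0.24). Without ICM 1 the list had 16 called genes, and without either WT library 0.

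Of 20 cytokines and chemokines tested, 0 rose and 2 fell (10% against 4.63% of all genes lower), with a median of -1.96, and without either WT library 0 were called. Over all 26 members in the files, tested or not, 16 had both ICM libraries below both WT libraries and 1 had both above. Among the 20 tested, 15 (75% against 29.8% of all genes) had both below. IL6 had 549 and 308 CPM in WT, 72.9 and 29.4 in ICM 1 and ICM 2 and 0.679 and 0.604 in ICM 3 and ICM 4, and was not called in this comparison (-3.07 ± 1.41; adjusted p 0.215). CXCL8, interleukin 8, overlapped between the groups at 1914 and 800.3 against 875 and 385 CPM. CXCL12, a stromal chemokine, fell from 15.2 and 18.4 to 1.46 and 0.158 CPM, and TSLP, thymic stromal lymphopoietin, from 18.7 and 17.6 to 9.22 and 4.74. CXCL12 is among 4 of the 20 that averaged under 1 CPM in ICM and passed the minimum level through WT alone.

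Of 45 proteases, serpins and growth factors, 1 rose and 2 fell, shares (2.22% and 4.44%) below the 3.85% and 4.63% of all genes. GREM1, a secreted BMP antagonist, had 0 counts in both WT libraries and 3.44 and 1.26 CPM in ICM, at least 47.7-fold higher when WT is set at the limit of 3 counts over the group; it passed the minimum level through ICM alone. IGFBP2, an insulin-like growth factor binding protein, fell from 300 and 179 to 47.9 and 25.7 CPM and TGFB3 from 5.80 and 5.46 to 1.66 and 1.46. The list had 10 called genes without ICM 1, 5 with scaling by total counts and 0 without either WT library.

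Of 32 genes of the NF-kB and AP-1 programmes, 4 fell and 1 rose (12.5% and 3.12% against 4.63% and 3.85% of all genes), with a median of -1.26. FOS, an immediate-early AP-1 subunit, had 62.6 and 53.2 CPM in WT and 5.98 and 7.84 in ICM (-3.07 ± 0.29; adjusted p 0.0036). NR4A2, an orphan nuclear receptor of the same early response, fell from 346 and 294 to 47.3 and 31.4 CPM and KLF4 from 10.2 and 10.5 to 2.08 and 3.07. The gene that rose was DUSP6 (1.40), a phosphatase that turns off ERK. The list had 9 called genes without ICM 1 and 1 without either WT library.

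The fibroblast identity of the cells was visible in both groups. Of 18 fibroblast markers, 17 were at or above 1 CPM in each of the 4 libraries and TWIST2 had 0 counts in all 4. Their summed level was 29828 and 38171 CPM in WT, 24308 in ICM 1 and 5230 in ICM 2. Epithelial markers summed to 39.9 to 147 CPM, of which KRT18 made up 77.5% and 77.4% in WT, 50.1% in ICM 1 and 93.6% in ICM 2, and KRT8 most of the rest. Endothelial markers summed to 65.2 to 275 CPM, of which TEK made up 88.8% to 99.4%, and immune markers to 43.0 to 108 CPM, of which CD68 made up 86.4% to 98.7%. The lung epithelial markers SFTPC, SFTPB and NKX2-1, the endothelial CDH5 and the leukocyte markers CD3E, MS4A1 and TYROBP had 0 counts in all 4 libraries. TWIST1, a mesenchymal transcription factor, fell from 39.7 and 28 to 9.82 and 7.23 CPM.

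Contractile and adhesion genes had few calls, where 3.85% of all genes were called higher and 4.63% lower. Of 31 contractile genes, 1 rose and 1 fell (3.23% each), with 7 called without ICM 1 and 0 without either WT library. TAGLN2, transgelin 2, fell from 474 and 431 to 160 and 208 CPM. Of 27 integrin and adhesion genes 0 were called by edgeR and 0 by the test with group weights, against 3 by DESeq2. ITGB1, the common beta chain, had 1765 and 2105 CPM in WT and 3285 and 1469 in ICM, with ICM 1 above and ICM 2 below.

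**Figure D4:**
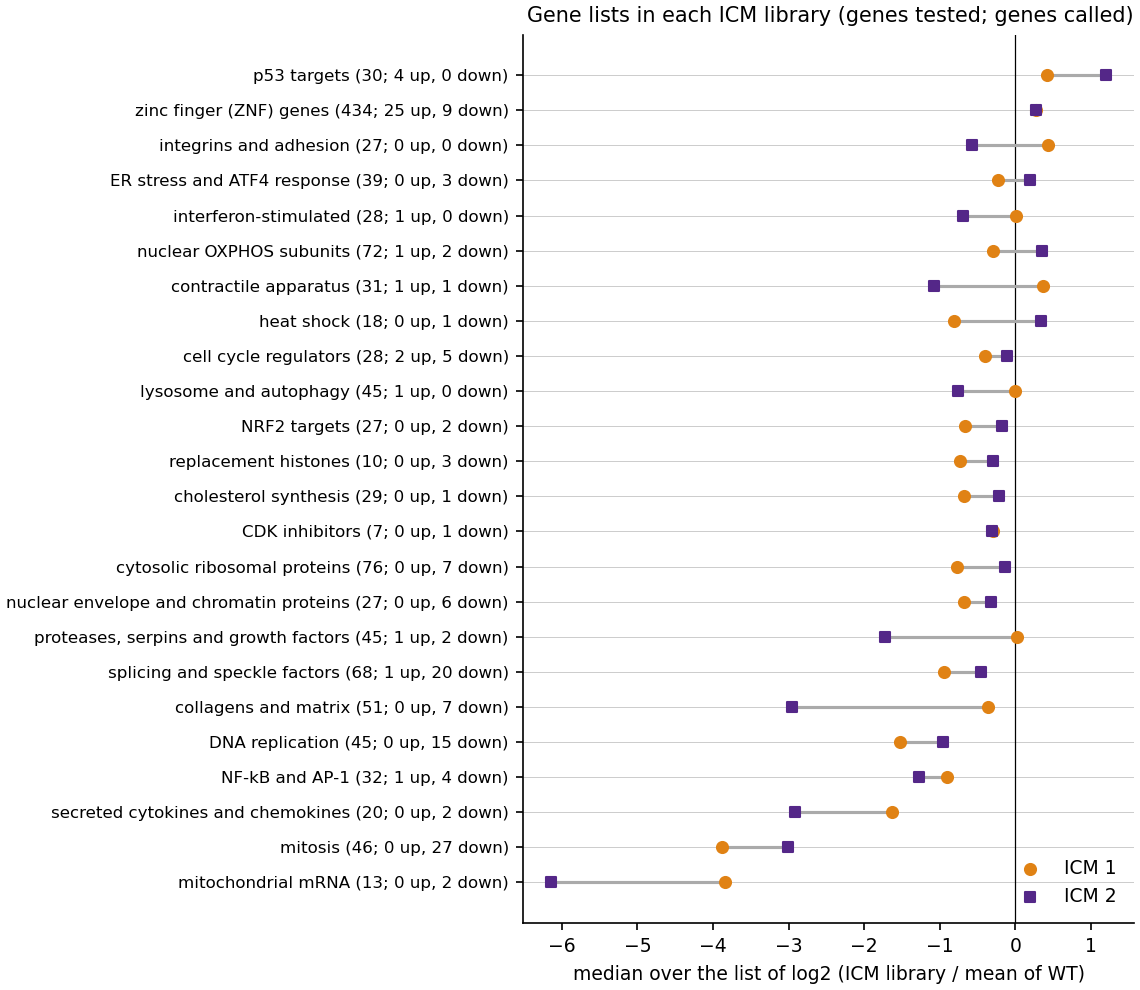
Median log2 ratio to WT of each gene list (cell type markers and replication-dependent histones left out) in ICM 1 (orange circles) and ICM 2 (purple squares), with the number of genes tested and called beside each name. The mitosis and DNA replication medians are below 0 in both libraries, and for collagens and matrix the libraries lie apart at -0.36 and -2.96.

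Replication-dependent histone genes encode the histones packaged onto new DNA, and their mRNAs normally end in a stem-loop without a poly(A) tail, so that their level in a library depends on how RNA was selected. Over all 62 such genes in the files, with no minimum level, 56 had both ICM libraries above both WT libraries, 0 had both below and 6 overlapped. Among all tested genes 25.8% had both above. The summed level of the 62 was 122 and 100.1 CPM in WT and 881 and 1423 in ICM. The minimum level was passed by 39, but 31 of these averaged under 1 CPM in WT and so entered the test only through the libraries in which they were high, which is why no count of calls over the 39 is given. Of the 8 that averaged 1 CPM or more in WT, 6 were above WT in both ICM libraries. Of these 8, 5 were called higher and 0 lower, where 3.85% of all genes were called higher. H1-2 had 11.1 and 8.17 CPM in WT and 179 and 435 in ICM, and H2BC4 had 3.96 and 2.58 against 49.0 and 148. H4C6, H4C2 and H2AC21, which are among those that entered through ICM alone, had 0 counts in both WT libraries. By that selection they had to differ, and they were at least 176-fold, 163-fold and 62.3-fold higher in ICM by the limit of 3 counts over the group. H4C6 had 0 counts in ICM 3 and ICM 4 as well, and H2AC21 had 0.0849 and 0.566 CPM there. Histone genes are near-identical copies that can share reads. Of the 8 genes the test with group weights called 5, and edgeR called 1 and 0 without WT 1 and WT 2.

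Histones took 0.0859% and 0.157% of protein-coding counts in ICM 1 and ICM 2 against 0.0114% and 0.00953% in WT, in the same libraries whose small RNA share was high, and 0.0867% and 0.102% in ICM 3 and ICM 4, whose small RNA share was not. The part of RNA selection in the histone result was not tested. Of 10 replacement histones, which are made outside S phase from polyadenylated mRNA, 3 fell and 0 rose (30% against 4.63% of all genes lower), with 1 called without either WT library. H3-3A, a source of histone H3.3, had 243 and 216 CPM in WT and 46.1 and 33.8 in ICM, H1-10 fell from 186 and 134 to 42.5 and 49.5, and MACROH2A2 from 38.2 and 35.6 to 16.4 and 10.2.

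Mitochondrially encoded mRNAs took 3.61% and 3.17% of protein-coding counts in WT, 0.499% in ICM 1 and 0.0711% in ICM 2. Of 13 such genes, 12 were lower in both ICM libraries, with a median of -4.75, and 2 were called by edgeR, 8 by the test with group weights and 1 by edgeR without either WT library. Both ICM libraries were lower for 92.3% of these genes, against 29.8% of all genes. By edgeR 15.4% were called lower, against 4.63% of all genes. ND6, a complex I subunit and the only gene of the list read from the light strand, fell from 80.5 and 74.3 to 2.43 and 2.39 CPM. ND3 fell from 793 and 561 to 38.5 and 10.6 CPM. COX1, a complex IV subunit, had 12713 and 11399.6 CPM in WT but 2701 and 298 in ICM, and was not called (adjusted p 0.188). The nuclear genes of oxidative phosphorylation had a median of 0.02. Of 72, 1 was called higher and 2 lower (1.39% and 2.78% against 3.85% and 4.63% of all genes). ATP5F1D, of ATP synthase, fell from 85.6 and 73.3 to 20.03 and 12.6 CPM and NDUFA5, of complex I, from 69.5 and 69.7 to 25.8 and 30.5. UQCRHL, which rose from 2.04 and 0.705 to 7.81 and 11.8 CPM, is a near-copy of UQCRH and its reads are uncertain.

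Zinc finger genes were more often higher than lower. Of 434 ZNF genes tested, 25 rose and 9 fell (5.76% and 2.07% against 3.85% and 4.63% of all genes), and 201 (46.3%) were higher in both ICM libraries than in both WT libraries, against 25.8% of all genes. The median was 0.32, with 0.27 in each of ICM 1 and ICM 2. The test with group weights called 7 of the 434, where it called 1.91% of all genes. ZNF460 was the most separated, followed on the lower side by ZNF414, with 12.7 and 11.4 CPM in WT and 1.99 and 0.526 in ICM, and ZNF503, a repressor of developmental genes, with 113 and 113 against 22.7 and 8.93. Without either WT library 1 ZNF gene was called.

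Cytosolic ribosomal protein genes had 7 of 76 lower and 0 higher (9.21% against 4.63% of all genes lower and 0% against 3.85% higher), with a median of -0.42. RPL28 fell from 991 and 765 to 219 and 161 CPM, RPS16 from 631 and 520 to 84.4 and 163, and RPLP1 from 881 and 721 to 260 and 266. RPS16 had 657 and 512 CPM in ICM 3 and ICM 4. Many of these genes have processed copies that share reads. Without ICM 2, 4 were called, and without either WT library 0.

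Stress and metabolic lists had few calls. Irrespective of the test, 16 of 27 NRF2 targets (59.3% against 29.8% of all genes) had both ICM libraries below both WT libraries, and 1 had both above. Among 29 cholesterol and lipid synthesis genes 17 (58.6%) had both below and 3 both above. In the other lists of this kind 30.8% to 42.9% had both below and 11.1% to 28.6% both above, against 25.8% of all genes above. Of 39 genes of the ER stress and ATF4 response, 3 fell and 0 rose (7.69% against 4.63% of all genes lower), with 9 called without ICM 1, 6 with scaling by total counts and 0 without either WT library. CEBPB, a transcription factor of inflammatory and stress genes, fell from 854 and 636 to 153 and 86.1 CPM. Of 27 NRF2 targets, 2 fell and 0 rose (7.41% lower), with 1 called without ICM 2 or with scaling by total counts and 0 without either WT library. NFE2L2, which encodes NRF2 itself, fell from 320 and 307 to 185 and 154 CPM.

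Of 18 heat shock genes, 1 fell and 0 rose (5.56% against 4.63% of all genes lower). This was HSPB1, which went from 290 and 327 to 129 and 91.9 CPM. Of 29 cholesterol and lipid synthesis genes, 1 fell and 0 rose (3.45% lower). It was FADS2, a fatty acid desaturase, with 152 and 150 CPM in WT and 69.3 and 52.9 in ICM. Of 45 lysosome and autophagy genes, 1 rose and 0 fell (2.22% against 3.85% of all genes higher). This was ATP6V1A, a subunit of the proton pump, which went from 98.9 and 111 to 288 and 221 CPM. Of 28 interferon-stimulated genes, 1 rose and 0 fell (3.57% higher). It was PARP14, a mono-ADP-ribosyltransferase, with 51.5 and 68.8 CPM in WT and 137 and 162 in ICM. The medians of these 6 lists lay between -0.38 and 0.09. The test with group weights called 0 of the heat shock, cholesterol and lipid synthesis, lysosome and autophagy, and interferon-stimulated genes.

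Other most separated genes on the lower side were of other kinds. SNX22 (48.7 and 49.7 CPM in WT, 0.139 and 0 in ICM) overlaps PPIB and BEST1 (342 and 332 against 12.2 and 4.60) overlaps FTH1. Each partner is far more abundant and lies on the other strand, and whether the counting used strand is not given in the sources used here, so reads of these genes cannot be told from those of their partners. OLFM2, an olfactomedin family protein, had 25.5 and 29 CPM in WT, 1.41 and 2.28 in ICM 1 and ICM 2, and 10.7 and 7.47 in ICM 3 and ICM 4. Among the reported most separated genes on the lower side, the test with group weights called SNX22, BEST1, MKI67, RRM2 and CDC20. It did not call ELN, TK1, TOP2A, KIF20A and OLFM2, nor LMNB1 of the panel. The overlap rule asked for exons shared with a gene on the other strand at least 10 times as abundant, in WT or in ICM. It was met by 2.97% of the tested genes with an annotated span, 7.41% of those called lower and 1.44% of those called higher. A gene that fell can meet it through its low ICM level alone, as KIF20A did beside BRD8. These shares are therefore not independent of the calls.

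The genes called higher were longer than those called lower. The median gene span from first to last annotated base in GENCODE v29 was 35.2 kb over the tested genes, 88.1 kb for genes called higher and 23.0 kb for genes called lower. A span was found by symbol for 11324 of the 11584 tested genes, 416 of the 446 called higher and 526 of the 536 called lower. The rest were left out, among them the histones H4C6, H4C2, H2AC21 and H3-3A and the mitochondrial ND6. The effect of leaving them out was not tested. In the shortest of 4 equal span groups 1.20% were called higher and 7.03% lower, and in the longest 7.56% and 2.40%. The gradient was seen in ICM 1, in which the median log2 ratio to WT went from -0.32 in the shortest to 0.31 in the longest group, while in ICM 2 it was -0.14 and -0.02. In ICM 3 and ICM 4, compared with the same WT libraries, it went from 0.18 to -0.29. Reads outside annotated features made up 16.3% in ICM 1, 4.73% in ICM 2, and 8.10% and 8.87% in WT, and their part in this relation was not tested.

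**Figure D5:**
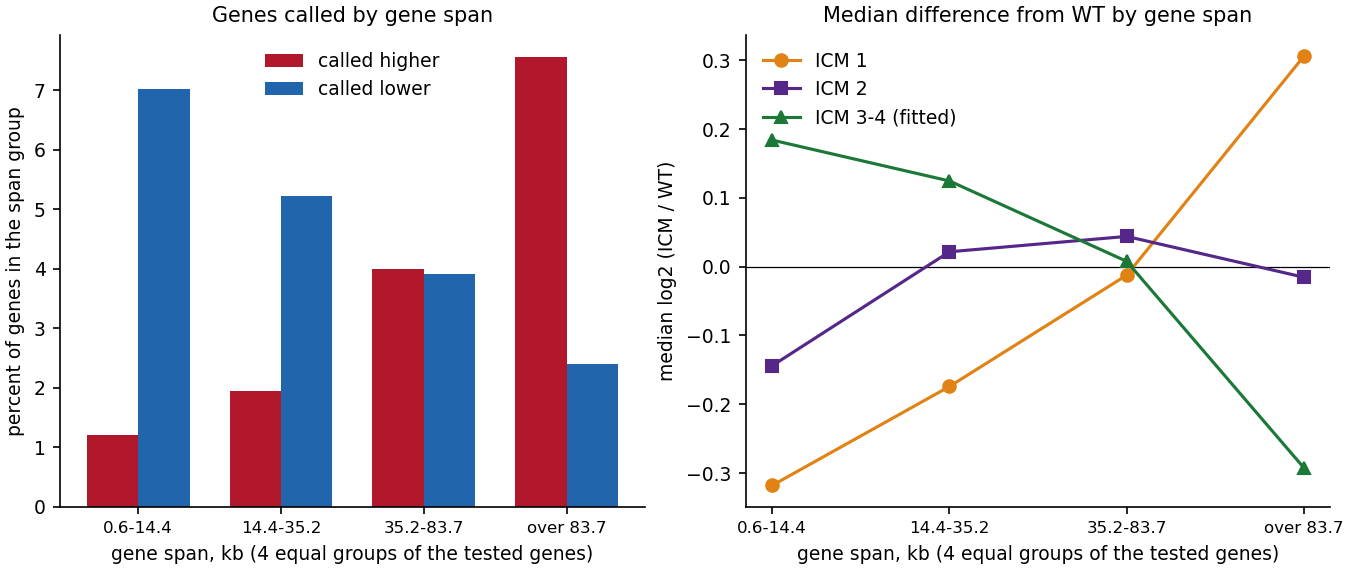
Tested genes with an annotated span, in 4 equal groups by gene span, with the percent called higher and lower (left) and the median log2 ratio to WT in ICM 1, in ICM 2 and, from the fit, in ICM 3 and 4 (right). The share called higher grows from 1.20% to 7.56% and the ICM 1 line climbs from -0.32 to 0.31, while the ICM 2 line stays between -0.14 and 0.04.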

How the data were processed

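RNA of untreated and inflachromene-treated IMR90 cells was sequenced from both ends after Trizol lysis and TruSeq library construction, per the labels' protocols. The authors deposited raw counts (whole reads for each of 54628 gene symbols) for every library, plus 5 lines of unassigned reads. The submitters' processing notes name STAR 2.7.3a, HTSeq 0.12.4, DESeq2 1.36.0 and the build hg38, with no role stated. The annotation release and strand setting are not given in the sources used here. Unassigned reads (17.5% and 17.9% in WT, 35.2% and 26.5% in ICM) were left out. Symbols were classed with the RefSeq gene table (51616 matched directly, 408 by an older name), and 19513 protein-coding symbols were kept before scaling. Counts were scaled by TMM over the 14 libraries, and the 11584 genes averaging 1 CPM or more in the 4 compared libraries were tested by quasi-likelihood in edgeR 4.0.16 (R 4.3.3). One mean per group was fitted to the 10 libraries of the first set (5 residual degrees of freedom, no block), with Benjamini-Hochberg adjustment over all tested genes; standard errors are those of this fit. That shared spread mixes groups whose replicates differed by a median of 1.04-fold (siSRRM2) to 1.68-fold (labelled siBANF1), with 1.64-fold in ICM 1-2, so standard errors and adjusted p-values are too small for this comparison. Exact permutation of 2 against 2 libraries cannot give a p below 0.333. Log2 ratios of single libraries to WT add 0.01 CPM. Where WT had no counts, a bound was taken at 3 counts over the group; bounds cover counting error only.

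Genes named are the 12 highest and 12 lowest by the distance between the nearest libraries of the 2 groups, among called genes of at least 10 CPM on average (histones and mitochondrial mRNA left out), a panel of 16 genes, and for each of 29 lists (1301 genes) the 3 most separated called genes, filled up by the most abundant. Some genes that this rule selects are not reported here; they remain in the fits and counts. Members of a list named with only a log2 fold change, and the histones H1-2 and H2BC4, were chosen after their values were seen. The libraries compared, the lists and the panel were chosen with earlier results of these data known. Alternatives were other scalings and filters, DESeq2 1.42.0, limma 3.58.1 voom with group weights, other sets of libraries, replicate blocks and leaving out each library. The fit was also run on simulated counts drawn with its own shared spread, so that run cannot test whether the spread suits this comparison. Promoter windows came from RefSeq (GRCh38.p14), gene spans from GENCODE v29.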

Additional observations from a re-analysis of the deposited data

Results flagged for a closer look

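ICM 1 and ICM 2 differed from ICM 3 and ICM 4 in 14 of the reported genes named as most separated or in the panel, by the edgeR test of ICM 1-2 against ICM 3-4 in the fit to all 14 libraries (adjusted p under 0.05). Treatment is the same by the labels, and the set of libraries is not. The log2 difference was positive for INMT (6.64), IL6 (6.31), CCND2 (4.86), ANKRD36C (4.82), NAALADL2 (3.24), ZNF460 (2.96), ZBTB20 (1.65), USP53 (1.53) and SLC9A7 (1.39). It was negative for SNX22 (-4.50), OLFM2 (-2.30), BANF1 (-2.16), SRRM2 (-1.98) and LMNB1 (-0.992).

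Small RNA genes, which no comparison of the report uses, took 6.06% of the gene counts of ICM 1 and 3.19% of those of ICM 2, above the WT libraries at 0.00799% and 0.00811%. How RNA was selected for each library is not given in the sources used here.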

How the results depend on the processing

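Calls depended on how the spread was estimated. Against 982 called genes (446 higher, 536 lower), all with groups apart, the 4 compared libraries alone gave 0, limma voom with group weights 221 (118 and 103), DESeq2 2452 (2451 with groups apart, 1270 and 1181), the fit to WT, siHMGB2 and ICM 1-2 593 (216 higher; added after seeing the data), an adjusted p under 0.01 108 (38 and 70) and a minimum of 10 CPM 650 (334 lower). Leaving out a library gave 37 to 1669 calls (6 to 800 higher, 31 to 869 lower), lowest without WT 1 and highest without ICM 1. In the fit to all 14 libraries ICM 1-2 gave 1413 calls (657 higher, 756 lower). With ICM 3-4 in place of ICM 1-2 that fit gave 4040 (2026 and 2014). The log2 fold change turned with ICM 3-4 for ANKRD36C (-1.67), BANF1 (0.44), CRELD2 (0.74), INMT (-3.01), NAALADL2 (-0.64) and RPS16 (0.022).

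Replicate numbers did not pair WT with ICM: the deviations of same-numbered libraries correlated at -0.212. Over the 10 pairs of groups in the fit the correlation ran from -0.212 to 0.853, the highest being that of ICM with the libraries labelled siBANF1, so the numbers tie some groups and not others. With a replicate block the 10 libraries gave 848 calls, 788 of them among the 982, and the 4 libraries 549 (114 higher), 302 of them among the 982. The crossed pairing, added after seeing the data, gave 309 (72 and 237). Of 75 named genes that were called, 37 were also called with group weights, 0 in the 4 libraries alone, and 16 and 18 without WT 1 and WT 2. The 4 libraries held 32909212 to 51673455 protein-coding counts, and genes averaging under 1 CPM were not tested.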
